A study of Arabidopsis thaliana with 18 samples.

Results

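Transcripts that lay lower in C24 than in Col-0 at every stage studied are described here, from ATH1 array profiles of developing seeds of these natural accessions of Arabidopsis thaliana. A probe set, the group of array probes that reads 1 transcript, was a member when the mean of the C24 arrays lay at least 0.8 log2 units below the mean of the Col-0 arrays at 8-9, at 10-11 and at 12-13 days after flower opening. The rule took 82 of the 19755 non-control probe sets. Each of the 6 groups, C24 and Col-0 at each of the 3 stages, held 3 arrays. No treatment or transgene was given for any group, and the plants of both accessions were grown in long days. Each array measured RNA of the seeds of 48 siliques, with 8 taken per plant and 6 plants to a pool, and plants of both growth experiments went into every pool. With 6 plants per accession in each experiment, pools of an accession must have shared plants, so p-values reflect how pools varied, not how plants did. The deposited values come from a restricted set of probes, those that match the genome sequences of both accessions and the TAIR10 gene models, with at least 3 probes in a set. A base difference under a probe lowers its signal in the accession that carries it, and such probes had been left out by the authors. All values are log2 levels, so that a difference of 1 is a 2-fold difference.

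A seed holds a seed coat of maternal tissue, an endosperm and an embryo, and over the ages sampled the embryo fills with storage protein and oil while the seed coat matures. Accessions of one species carry different alleles at many genes, and their seeds differ in the levels of many transcripts. A pool of whole seeds gives 1 level for all these tissues, and fewer cells of a type cannot be told apart from less RNA per cell.

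The arrays had medians between 6.05 and 6.17 and 25th percentiles between 4.41 and 4.57. Arrays of the same group correlated at 0.992 to 0.997 across probe sets. Between groups the correlations ran from 0.859 to 0.985. The deposited table holds no detection call, so a level under 4.41 is not shown to lie above background. In C24, 15 members had at least 1 group mean under that value and 7 had all 3 there, and in Col-0 none did. For these 15 the difference can be understated.

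One array stood apart over the members. In the first C24 pool of 8-9 days, 55 of the 82 members had the highest level of the 3 pools of that group (67.1%), where 33.2% of all probe sets did. Its median distance from the mean of the other C24 pools was 0.18 log2 units over the members and 0.00 over all probe sets. For the 77 probe sets that were higher in C24 by 0.8 or more at every stage, this pool was the lowest of its group in 40.3%, against 34.9% of all probe sets. The third C24 pool of 8-9 days was the lowest in more of them, 46.8%, against 33.2% of all probe sets. Over these probe sets the median distance from the other pools was -0.02 for the first pool and -0.07 for the third. Without the first C24 pool of 8-9 days the rule took 88 probe sets, among them all 82 members. The third C24 pool of 10-11 days was the highest of its group in 43 members (52.4%), against 31.9% of all probe sets. The second Col-0 pool of 12-13 days was the highest of its group in 9 (11.0%), against 35.2%. Values without the first C24 pool of 8-9 days are given beside some of the counts and beside several of the genes it moved most. What set these arrays apart was not tested.

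The members were chosen by the accession differences, which are therefore described without a test. Over the 82 members the difference, C24 minus Col-0, had a median of -1.25 at 8-9 days, -1.47 at 10-11 days and -1.42 at 12-13 days. The medians over all probe sets were -0.02, 0.01 and -0.01. The mean over the stages was -1 or lower for 75 members, -2 or lower for 20 and -3 or lower for 8. All 82 had every C24 array below every Col-0 array at each stage. Of all probe sets, 18.8%, 16.6% and 17.8% showed this separation at 8-9, 10-11 and 12-13 days. Nothing is read from that gap, because the rule used the same levels. At or below -0.8 lay 327 probe sets at 8-9 days, 349 at 10-11 days and 437 at 12-13 days. The members made up 25.1%, 23.5% and 18.8% of those, and another 181 probe sets met the mark at exactly 2 stages. Just inside the rule lay AT1G55890, with -0.80 at 8-9 days, AT3G28140, with -0.81 at 10-11 days, and the probe set 247175_at, with -0.81 at 12-13 days. Just outside it lay AT3G22750, with -0.79 at 8-9 days, and the probe sets 258751_at and 250891_at, whose smallest differences, both -0.80 after rounding, fell just short of the mark.

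**Figure D1:**
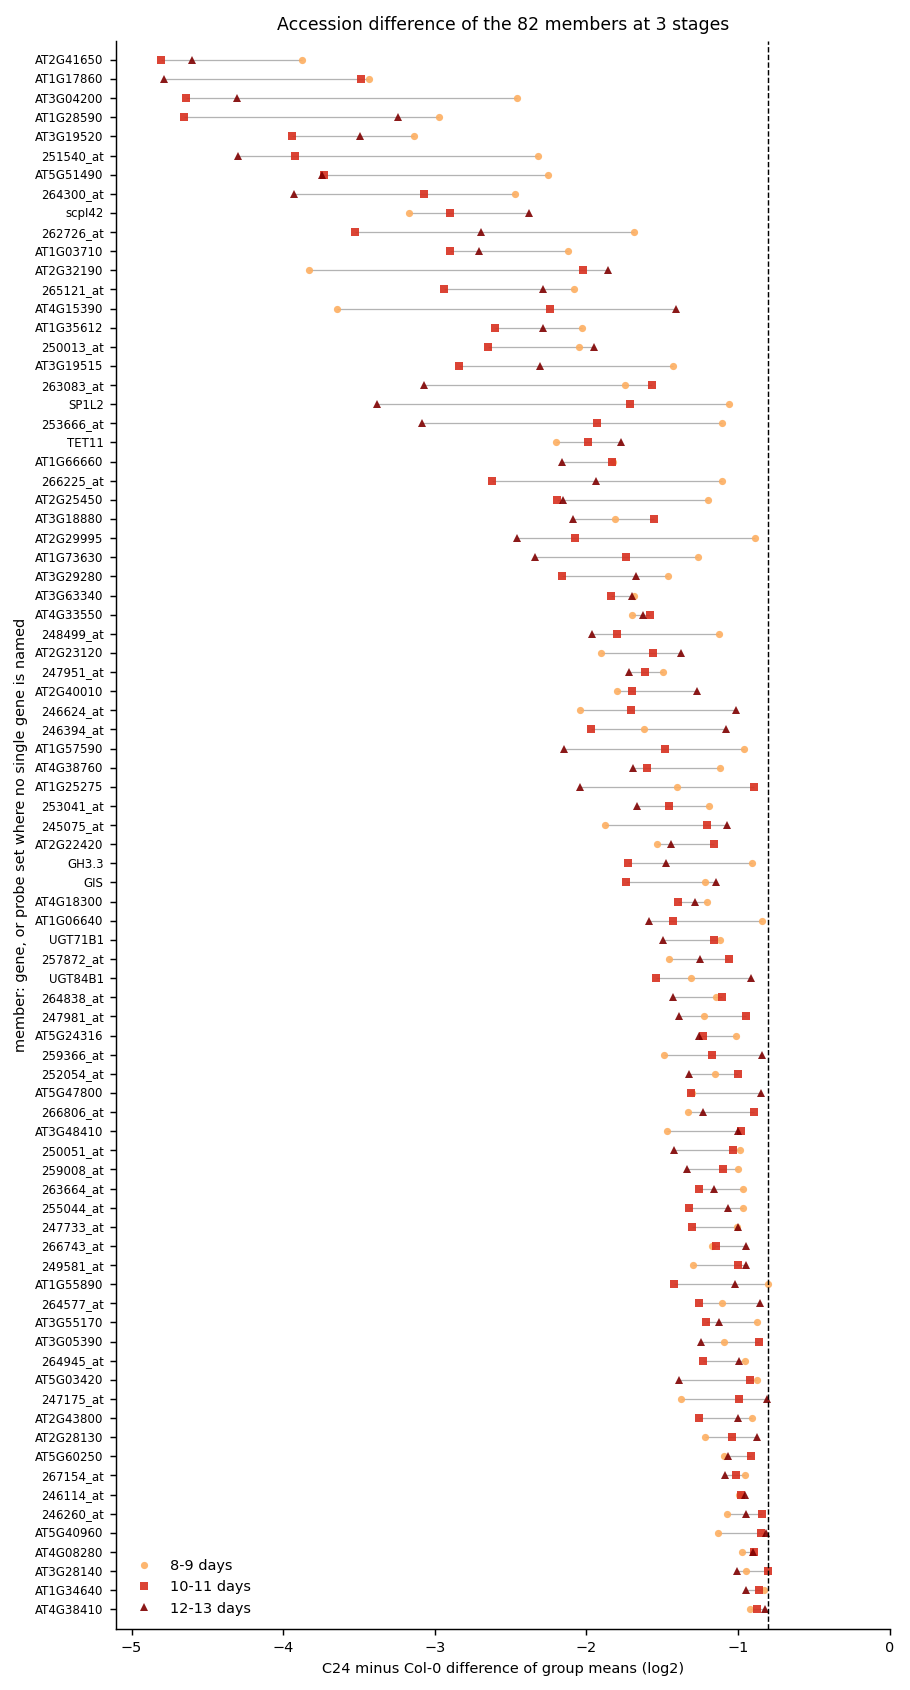
C24 minus Col-0 difference of group means (log2) for each of the 82 members, in the order of the mean over the stages, with a point for each stage and a dashed line at -0.8. The lowest differences lay between -4 and -5 and belonged to few members, and most members lay between -0.8 and -2 at every stage.

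The array annotation named a single gene for 49 members, several genes for 1, and did not list 32. The share with a single gene was 59.8% of the members and 59.5% of all probe sets. All 49 genes were found in RefSeq (TAIR10.1), 48 of them protein-coding and 1, AT1G35612, a pseudogene. On chromosome 1 lay 26.5% of these 49, against 26.5% of all 11718 probe sets with a single gene in that table. The shares were 22.4% against 15.4% on chromosome 2, 24.5% against 20.5% on chromosome 3, 12.2% against 13.9% on chromosome 4 and 14.3% against 23.6% on chromosome 5.

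Members that encode wall proteins, a secreted peroxidase, esterases, a carboxypeptidase-like protein or protease inhibitor-like proteins are described first. AT2G41650, for which no role is given here, closes this group. AT1G17860 encodes a Kunitz-type protease inhibitor. Its level was 7.43, 6.53 and 6.32 in the C24 pools and 10.16, 10.22 and 10.20 in the Col-0 pools at 8-9 days. At 10-11 days it was 6.39, 6.81 and 6.48 in C24 and 9.99, 10.05 and 10.08 in Col-0. At 12-13 days it was 6.28, 6.17 and 6.16 in C24 and 10.96, 10.85 and 11.17 in Col-0. The accessions lay farthest apart at the last stage, where Col-0 was at its highest and C24 at its lowest. The differences were -3.43 ± 0.19, -3.48 ± 0.19 and -4.79 ± 0.19 (SE of the model, 3 arrays per group), and their mean was a 14.9-fold lower level in C24. Without the first C24 pool the difference at 8-9 days was -3.77.

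AT3G04200 encodes a germin-like protein, of a family of wall proteins with the cupin fold. It lay at 8.33, 7.96 and 7.55 in C24 seeds and 10.36, 10.29 and 10.56 in Col-0 seeds at 8-9 days. At 10-11 days the levels were 6.74, 6.79 and 7.54 in C24 and 11.54, 11.71 and 11.74 in Col-0, and at 12-13 days 7.37, 7.50 and 7.55 in C24 and 11.94, 11.64 and 11.75 in Col-0. The difference was -2.46 ± 0.19 at the first stage, -4.64 ± 0.19 at the second and -4.30 ± 0.19 at the third, a mean of 13.9-fold lower in C24. Without the first C24 pool the first of these was -2.65. The level of Col-0 was higher by 1.37 at 12-13 than at 8-9 days, and that of C24 changed by -0.47.

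AT1G28590, a GDSL-type esterase, lay at 7.22, 6.32 and 6.16 in C24 seeds and 9.44, 9.42 and 9.76 in Col-0 seeds at 8-9 days. Its levels were 4.74, 5.00 and 5.41 in C24 and 9.66, 9.80 and 9.66 in Col-0 at 10-11 days, and 5.25, 5.41 and 5.59 in C24 and 8.93, 8.60 and 8.44 in Col-0 at 12-13 days. No C24 pool came within 2 log2 units of a Col-0 pool of its stage. The differences were -2.97 ± 0.22, -4.66 ± 0.22 and -3.24 ± 0.22, a mean of 12.3-fold lower. Without the first C24 pool the difference at 8-9 days was -3.30.

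AT5G51490 encodes a pectin methylesterase, an enzyme that removes methyl groups from pectin of the cell wall. Its 8-9 day levels were 8.60, 8.66 and 8.56 in C24 and 11.07, 10.67 and 10.84 in Col-0. They were 8.05, 8.04 and 8.40 in C24 and 11.84, 11.93 and 11.92 in Col-0 at 10-11 days, and 7.69, 7.87 and 7.86 in C24 and 11.62, 11.43 and 11.60 in Col-0 at 12-13 days. The pools of each group lay close together, and the first C24 pool did not stand out here. The differences were -2.25 ± 0.11, -3.73 ± 0.11 and -3.75 ± 0.11. Another wall enzyme, the pectin acetylesterase AT1G57590, had differences of -0.96 ± 0.24, -1.48 ± 0.24 and -2.15 ± 0.24. AT2G22420, a secreted peroxidase, had -1.54 ± 0.17, -1.16 ± 0.17 and -1.44 ± 0.17.

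The serine carboxypeptidase-like gene scpl42 lay at 5.02 ± 0.56, 4.96 ± 0.20 and 4.57 ± 0.25 in C24 and at 8.19 ± 0.18, 7.86 ± 0.04 and 6.95 ± 0.27 in Col-0 over the 3 stages (mean ± SD, n = 3). It differed most at 8-9 days, by -3.17 ± 0.21, or by -3.49 without the first C24 pool. AT1G03710, a cystatin-like protein, lay at 5.31 ± 0.46, 4.35 ± 0.13 and 4.89 ± 0.16 in C24 and at 7.43 ± 0.01, 7.25 ± 0.05 and 7.59 ± 0.24 in Col-0. Its difference at 8-9 days was -2.12 ± 0.16, or -2.38 without the first C24 pool. Its C24 mean at 10-11 days is not shown to lie above background.

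AT2G41650 had the lowest mean difference of all members, -4.43, or 21.5-fold lower in C24. The levels at 8-9 days were 6.31, 5.09 and 4.83 in C24 and 9.23, 9.35 and 9.27 in Col-0, and without the first C24 pool the difference there was -4.33 in place of -3.88. At both later stages its C24 means, 4.06 and 4.02, are not shown to lie above background.

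**Figure D2:**
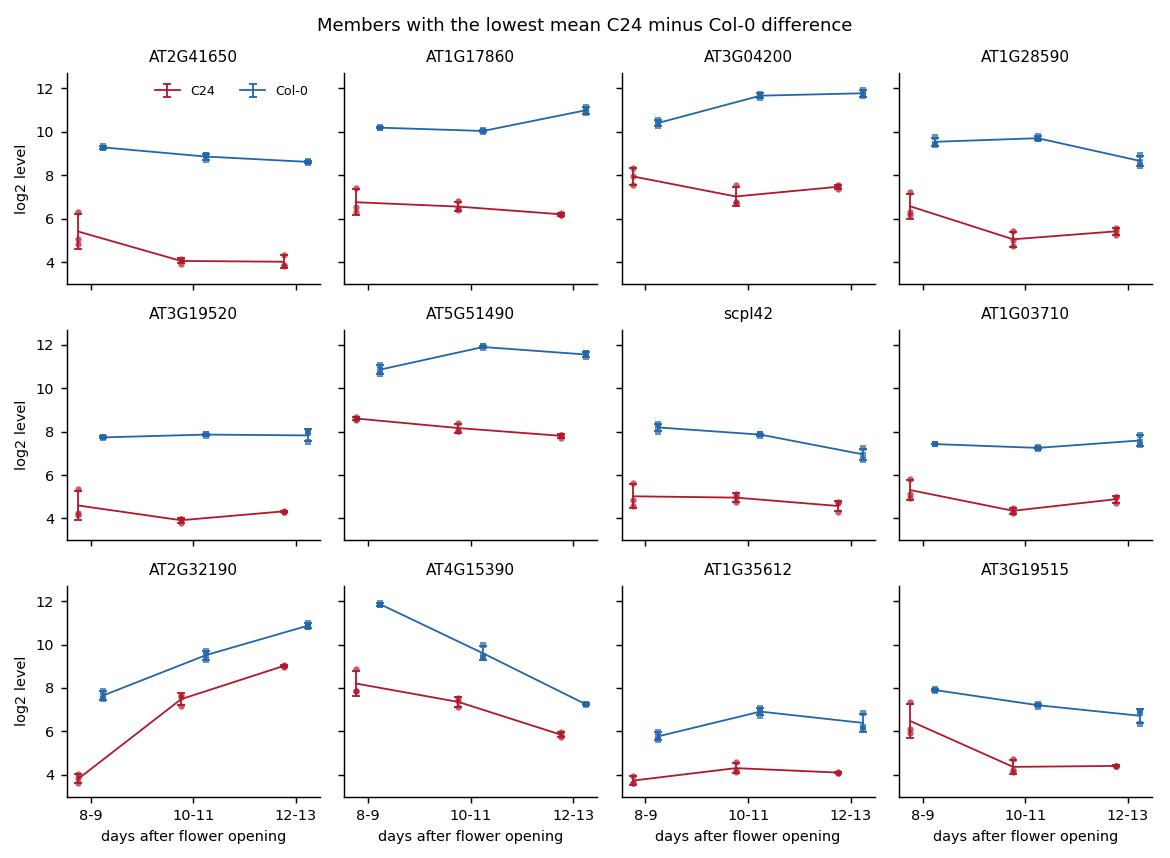
Log2 levels of the 12 single-gene members with the lowest mean difference, against days after flower opening, with a point for each pool and lines through the group means with SD bars (C24 red circles, Col-0 blue squares, n = 3). In AT2G41650, AT3G19520, AT3G19515 and AT4G15390 the highest C24 pool at 8-9 days lies well above the other C24 pools of that age. Smaller gaps of this kind are seen in other panels, such as AT1G17860, AT1G28590, scpl42 and AT1G03710. At each stage the Col-0 pools lie above the C24 pools of that stage in every panel.

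Members that encode enzymes of hormones and other small molecules follow. GH3.3 encodes an enzyme that joins auxin to amino acids. It lay at 6.65, 6.21 and 5.91 in C24 seeds and 7.39, 7.20 and 6.92 in Col-0 seeds at 8-9 days, a difference of -0.91 ± 0.21. The differences were -1.72 ± 0.21 at 10-11 days and -1.48 ± 0.21 at 12-13 days. Its pools were more scattered than those of most members, with SDs of 0.24 to 0.37 in the 6 groups, and the groups did not overlap.

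UGT84B1, a glucosyltransferase that accepts auxin, lay at 6.92, 6.66 and 7.22 in C24 seeds and 8.12, 8.34 and 8.27 in Col-0 seeds at 8-9 days. At 12-13 days it lay at 4.27, 4.36 and 4.34 in C24, under the 25th percentile, and at 5.26, 5.20 and 5.25 in Col-0. The differences were -1.31 ± 0.17, -1.54 ± 0.17 and -0.91 ± 0.17. UGT71B1, of the same family of transferases of sugars to small molecules, had -1.12 ± 0.13, -1.16 ± 0.13 and -1.50 ± 0.13.

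AT2G25450, a dioxygenase that acts on the side chain of glucosinolates, lay at 10.51 ± 0.23, 8.90 ± 0.20 and 8.04 ± 0.22 in C24. In Col-0 it lay at 11.70 ± 0.10, 11.10 ± 0.09 and 10.19 ± 0.12. The differences were -1.20 ± 0.13, -2.19 ± 0.13 and -2.15 ± 0.13. AT4G15390, a BAHD-type acyltransferase, lay at 8.89, 7.87 and 7.85 in C24 seeds and 11.92, 11.81 and 11.82 in Col-0 seeds at 8-9 days. At 12-13 days it lay at 5.82, 5.75 and 5.97 in C24 seeds and 7.28, 7.21 and 7.27 in Col-0 seeds. Its difference narrowed over the stages, with -3.65 ± 0.21, -2.24 ± 0.21 and -1.41 ± 0.21, and without the first C24 pool it was -3.99 at 8-9 days.

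Among proteins of membranes, the cytoskeleton and the nucleus, TET11, a tetraspanin of the plasma membrane, lay at 5.41 ± 0.26, 5.49 ± 0.13 and 5.55 ± 0.05 in C24 and at 7.61 ± 0.12, 7.48 ± 0.12 and 7.33 ± 0.20 in Col-0. Its change from 8-9 to 12-13 days, averaged over the accessions, was -0.07 ± 0.09 and did not pass the test described further on (adjusted p = 0.452). SP1L2 belongs to the SPIRAL1 family of microtubule-associated proteins. Its level at 8-9 days was 4.66, 4.60 and 4.66 in C24 and 5.64, 6.02 and 5.45 in Col-0, and at 12-13 days it was 5.22, 5.10 and 5.14 in C24 and 8.40, 8.47 and 8.72 in Col-0. The differences were -1.06 ± 0.15, -1.71 ± 0.15 and -3.38 ± 0.15. GIS, a zinc finger protein known from trichome formation on the inflorescence, had -1.22 ± 0.15, -1.74 ± 0.15 and -1.15 ± 0.15.

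Ribosomal proteins were represented by AT2G40010, of the L10 family, and AT3G55170, of the L29 family. AT2G40010 lay at 5.11 ± 0.32 in C24 seeds and 6.91 ± 0.11 in Col-0 seeds at 8-9 days, and its differences were -1.80 ± 0.16, -1.70 ± 0.16 and -1.27 ± 0.16. AT3G55170 had -0.88 ± 0.11, -1.21 ± 0.11 and -1.13 ± 0.11. AT3G55170, AT1G57590 and AT2G22420, and AT2G43800 named among the changes with age, were picked for their known roles after the values had been seen.

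The 33 members without a single named gene had mean differences between -3.51 and -0.95. The lowest of them, the probe set 251540_at, lay at 8.80, 8.02 and 7.83 in C24 seeds and 10.48, 10.39 and 10.74 in Col-0 seeds at 8-9 days, and at 6.71, 6.80 and 6.73 in C24 and 11.30, 10.80 and 11.03 in Col-0 at 12-13 days. The pseudogene AT1G35612 lay at 3.74 ± 0.19, 4.31 ± 0.23 and 4.10 ± 0.02 in C24, all under the 25th percentile, and at 5.77 ± 0.18, 6.91 ± 0.18 and 6.39 ± 0.40 in Col-0. For the probe set 264300_at, next in order among the members without a single gene, all 3 C24 means lay under 4.41, against Col-0 means between 6.56 and 7.72.

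The accession difference was not equally large at every age. It was widest at 8-9 days for 24 members, at 10-11 days for 28 and at 12-13 days for 30. From 8-9 to 12-13 days it widened in 51 members and narrowed in 31, or in 46 and 36 without the first C24 pool of 8-9 days. It moved by less than 0.5 in 49 members, widened by 1 or more in 12 and narrowed by 1 or more in 3. Without that pool the last 2 counts were 10 and 4. Since the rule used these differences, their movement was not tested.

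SP1L2 widened most of all members. Its C24 level was higher by 0.51 at 12-13 than at 8-9 days and its Col-0 level by 2.83, so that the difference moved by -2.32 and the increase in C24 ran against the widening. Among members with a single gene AT3G04200, AT2G29995, AT5G51490 and AT1G17860 followed, with movements of -1.85, -1.57, -1.49 and -1.36. The probe sets 251540_at and 253666_at, each at -1.98, came between SP1L2 and AT3G04200. AT2G29995 encodes the precursor of a small sulfated peptide, and its level was higher at 12-13 days by 1.80 in C24 and by 3.37 in Col-0. In AT5G51490 the accessions went opposite ways, with -0.80 in C24 and 0.69 in Col-0, as they did in AT1G17860, with -0.56 in C24 and 0.80 in Col-0.

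AT4G15390 and AT2G32190 narrowed most, by 2.24 and 1.97. In AT4G15390 the level at 12-13 days minus that at 8-9 days was -2.36 in C24 and -4.60 in Col-0. AT2G32190 belongs to a family of small cysteine-rich membrane proteins. Its level at 8-9 days was 4.03, 3.84 and 3.60 in C24, under the 25th percentile, and 7.87, 7.62 and 7.47 in Col-0. At 12-13 days it was 9.02, 9.07 and 8.97 in C24 and 10.83, 10.80 and 11.00 in Col-0. The difference was -3.83 ± 0.14 at the first stage and -1.86 ± 0.14 at the last. The third member to narrow by 1 or more was the probe set 246624_at, by 1.03. Among members with a single gene the next 3 were scpl42, AT2G40010 and AT2G23120, which narrowed by 0.79, 0.53 and 0.53.

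The change with age averaged over both accessions did not enter the rule and was tested with limma over all probe sets. The rule still bears on level, since no member had a Col-0 group mean under 4.41. All probe sets include dim ones, so the shares given here and for the steps compare sets of unlike level. They were not matched for level. From 8-9 to 12-13 days 40 of the 82 members fell (48.8%), where 34.0% of all probe sets did, and 24 rose (29.3%), where 35.7% did. The median change was -0.19 over the members and 0.03 over all probe sets, and the median size of the change without its sign was 0.57 and 0.33. From 8-9 to 10-11 days 37 members fell and 18 rose, against 29.5% lower and 27.4% higher among all probe sets. From 10-11 to 12-13 days 30 fell and 21 rose, against 20.9% lower and 20.2% higher among all. Without the first C24 pool of 8-9 days the counts from 8-9 to 12-13 days were 40 lower and 27 higher. The 33 members without a single gene gave 14 lower and 10 higher of these, and the 49 with one gave 26 lower and 14 higher. A level held up by background in C24 can make such an averaged change smaller than that of the transcript.

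**Figure D3:**
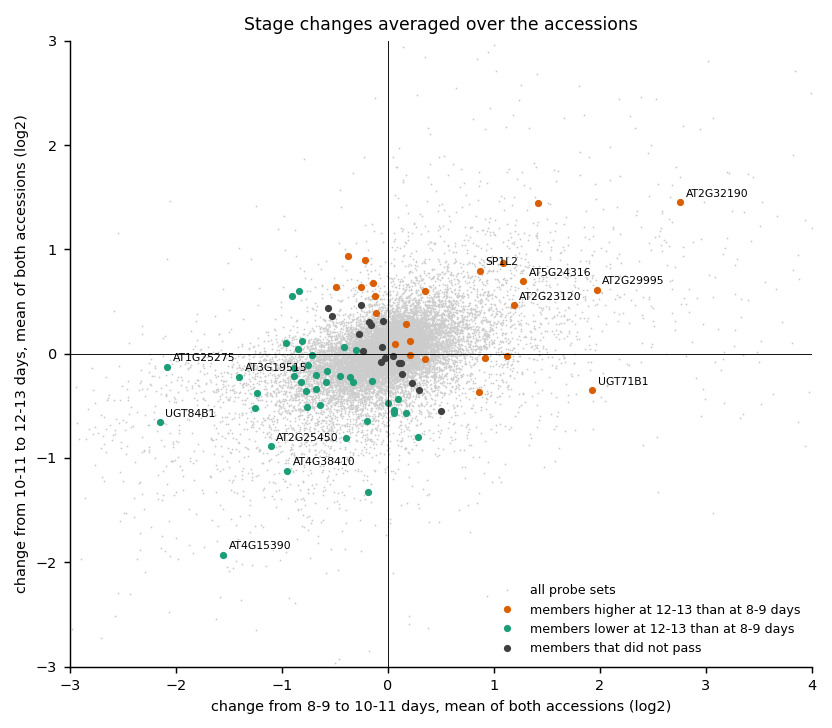
Change from 8-9 to 10-11 days (horizontal axis) against change from 10-11 to 12-13 days (vertical axis), each a mean of both accessions in log2 units, for all probe sets in grey and for the members by their call from 8-9 to 12-13 days. Members moved in either direction in each step, with AT2G32190 at the upper right and AT4G15390 at the lower left, and 115 grey points lie outside the axes.

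Both steps went down in 16 members (19.5%), where 13.2% of all probe sets did so, and both went up in 8 (9.8%), against 11.9%. A fall followed by a rise was seen in 8 members (9.8%), against 1.76% of all probe sets, and AT1G03710 was the member with a single named gene among them. It fell by 0.56 in the first step (adjusted p = 0.000384) and rose by 0.44 in the second (adjusted p = 0.00512). On the mean of the accessions, a rise followed by a fall was seen in 6 members (7.3%), against 3.08%: AT5G51490, AT1G35612, UGT71B1, AT2G43800 and a further 2 without a single gene. In AT5G51490 the first step was -0.44 in C24 and 1.04 in Col-0, so the rise was that of Col-0. Its second step was -0.36 in C24, which thus went down in both steps. AT2G43800 encodes a formin, a protein that nucleates actin. For 14 members (17.1%) neither step passed, against 32.0% of all probe sets, and among them were AT1G17860, AT3G04200, AT3G19520 and TET11. A mean that did not pass can hold opposite changes. The first step of AT3G04200 was -0.92 in C24 and 1.26 in Col-0. The second step of AT1G17860 was -0.35 in C24 and 0.95 in Col-0. AT1G17860 passed in the second step without the first C24 pool of 8-9 days, with 0.30 and an adjusted p of 0.00325, and from 8-9 to 12-13 days with 0.29 and an adjusted p of 0.00317. Its second step also passed without the third C24 pool of 8-9 days or the second of 10-11 days. The second step of AT1G35612 was -0.29 and no longer passed without the third Col-0 pool of 12-13 days, and was -0.30 and did not pass without the second C24 pool of 10-11 days.

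AT2G32190 rose most, by 4.21 ± 0.10 from 8-9 to 12-13 days (mean of the accessions ± SE, adjusted p = 4.94e-17). It was higher by 5.19 in C24 and by 3.22 in Col-0. AT2G29995 rose by 2.58 ± 0.08 (adjusted p = 7.96e-16), with 1.97 ± 0.08 up to 10-11 days and 0.61 ± 0.08 after them. AT5G24316, a proline-rich protein, lay at 7.70, 7.80 and 7.50 in C24 seeds and 8.67, 8.66 and 8.72 in Col-0 seeds at 8-9 days. It lay at 9.56, 9.47 and 9.54 in C24 seeds and 10.72, 10.67 and 10.96 in Col-0 seeds at 12-13 days, and rose by 1.98 ± 0.11 (adjusted p = 4.27e-12). Its accession difference stayed between -1.02 and -1.26 while the level rose in both accessions.

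AT2G23120 encodes a late embryogenesis abundant protein, of the proteins that protect drying seeds. Its level was 8.44, 8.22 and 7.87 in C24 and 10.13, 10.13 and 9.98 in Col-0 at 8-9 days, and 10.07, 9.94 and 10.26 in C24 and 11.24, 11.45 and 11.71 in Col-0 at 12-13 days. It rose by 1.65 ± 0.09 (adjusted p = 7.2e-12), and the C24 pools at 12-13 days had about the level of the Col-0 pools at 8-9 days. SP1L2 rose by 1.67 ± 0.11 (adjusted p = 5.67e-11), a mean of unequal changes in C24 and Col-0. UGT71B1 lay at 5.96 ± 0.20, 7.87 ± 0.14 and 7.35 ± 0.08 in C24 and at 7.08 ± 0.30, 9.03 ± 0.10 and 8.85 ± 0.15 in Col-0. It rose by 1.93 ± 0.09 up to 10-11 days and fell by 0.35 after them (adjusted p = 2.61e-12 and 0.00519).

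AT4G15390 fell most, with a change of -3.48 ± 0.15 from 8-9 to 12-13 days (adjusted p = 1.09e-13). UGT84B1 changed by -2.81 ± 0.12 (adjusted p = 2.07e-13), of which -2.15 ± 0.12 came in the first step. UGT84B1 and UGT71B1, both lower in C24 by the rule, thus moved in opposite directions from 8-9 to 12-13 days. AT1G25275 lay at 7.06 ± 0.15 in C24 seeds and 8.46 ± 0.28 in Col-0 seeds at 8-9 days, and changed by -2.08 ± 0.15 in the first step (adjusted p = 6.62e-10).

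AT4G38410, a dehydrin of the late embryogenesis abundant proteins, fell where AT2G23120 rose. Its level was 8.00, 8.29 and 8.10 in C24 and 9.05, 9.17 and 8.94 in Col-0 at 8-9 days, and 6.18, 5.94 and 6.21 in C24 and 6.96, 6.99 and 6.85 in Col-0 at 12-13 days. The change was -2.07 ± 0.08 (adjusted p = 3.56e-14), and the accession difference stayed between -0.82 and -0.92. AT2G25450 changed by -1.99 ± 0.09 (adjusted p = 3.65e-13), with -2.47 in C24 and -1.51 in Col-0.

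Other named members moved less with age. AT2G41650 fell by 1.03 and AT1G28590 by 1.02 from 8-9 to 12-13 days (adjusted p = 3e-05 and 8.83e-06). The change of AT2G41650 was -0.80 and that of AT1G28590 -0.85 without the first C24 pool of 8-9 days. The second step of AT1G28590, -0.34 (adjusted p = 0.0831), then passed with an adjusted p of 0.0175, and it also passed without the first Col-0 pool of 12-13 days or the first C24 pool of 10-11 days. The C24 level of AT2G41650 can be held up by background. The carboxypeptidase-like scpl42 fell by 0.84 and GH3.3 by 0.52 (adjusted p = 4.35e-05 and 0.00443). AT3G04200 rose by 0.45 ± 0.13 (adjusted p = 0.00524), a mean of opposite changes in the accessions. The change of GIS, -0.27 ± 0.10 (adjusted p = 0.0273), missed the threshold under 7 of 24 alternatives. These were both rescalings of the arrays and the fits without the first Col-0 pool of 8-9 days, the first or the second Col-0 pool of 12-13 days, the second C24 pool of 8-9 days or the first C24 pool of 12-13 days, with changes between -0.25 and -0.21.

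**Figure D4:**
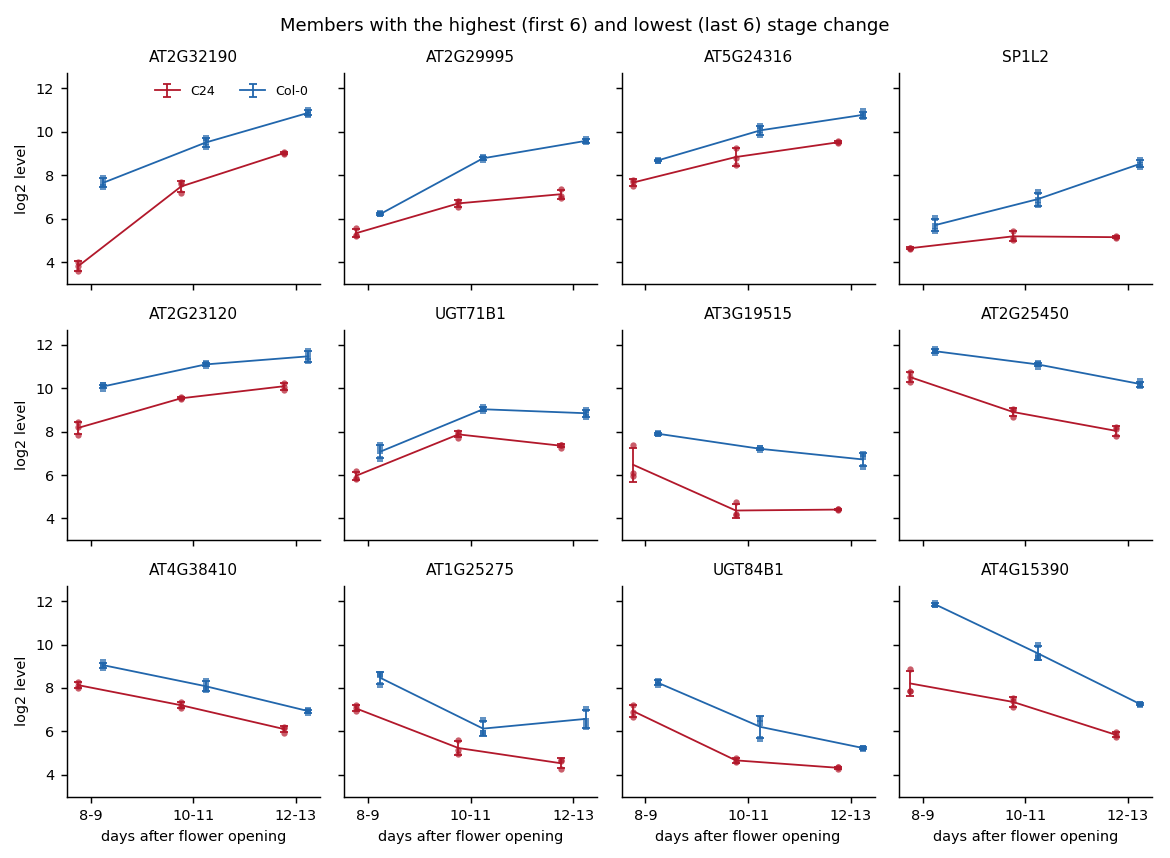
Log2 levels of the 6 single-gene members that rose most and the 6 that fell most from 8-9 to 12-13 days on the mean of the accessions, drawn as pools with group means and SD (C24 red circles, Col-0 blue squares, n = 3). The lines of C24 and Col-0 run side by side in AT5G24316 and AT4G38410, diverge in SP1L2 and AT2G29995 and converge in AT4G15390 and AT2G32190.

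Gene order gave a further view of the members that the rule did not use. Among members with a single gene, only AT3G19515 and AT3G19520 lay within 3 places of each other in the RefSeq gene order, and they are adjacent. Members without a single gene were not placed in this order, so pairs that include them are not known. AT3G19520 lay at 5.38, 4.27 and 4.14 in C24 seeds and 7.69, 7.77 and 7.75 in Col-0 seeds at 8-9 days. AT3G19515 lay at 7.37, 5.94 and 6.12 in C24 seeds and 7.87, 7.89 and 7.95 in Col-0 seeds. In both, the first C24 pool stood well above the others, and without it the difference at 8-9 days was -3.53 for AT3G19520 and -1.88 for AT3G19515. The differences over the stages were -3.14 ± 0.21, -3.94 ± 0.21 and -3.50 ± 0.21 for AT3G19520 and -1.43 ± 0.25, -2.84 ± 0.25 and -2.31 ± 0.25 for AT3G19515. AT3G19515 changed by -1.62 ± 0.18 from 8-9 to 12-13 days (adjusted p = 1.68e-07), and AT3G19520 by -0.09 ± 0.15 (adjusted p = 0.611).

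A second probe set of AT3G19515 did not share the difference. It had group means of 4.21, 3.98 and 4.15 in C24 and 4.35, 4.33 and 4.17 in Col-0 over the stages, all under the 25th percentile, with differences of -0.14, -0.35 and -0.02. AT4G38760 also had a second probe set, with differences of -0.23, -0.08 and 0.20, where the member probe set had -1.12, -1.60 and -1.69. The second probe set of AT4G38760 had means of 4.41 to 4.77. Which probe set reads the transcript was not tested.

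Next to the 49 named members in the order of protein-coding genes lay 40 probe sets with a single gene that were not members. The second probe set of AT3G19515 was among the 40, and 33 of the 49 members had a neighbour with such a probe set. Of the 40, 1 (2.5%), AT5G47790, was lower in C24 at all 3 stages at a limma adjusted p under 0.05. Of all probe sets, members included, 2.71% were. Without the third C24 pool of 8-9 days the count was 2. The median of their mean differences was -0.08. AT5G47790 had differences of -0.61 ± 0.07, -0.44 ± 0.07 and -0.61 ± 0.07 (adjusted p = 4.37e-06, 0.000199 and 4.62e-06). It lies beside AT5G47800, a member of the NPH3 family of phototropic response proteins.

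Another 2 neighbours, chosen after their values were seen, differed strongly at the later stages. AT5G51500, a pectin methylesterase beside AT5G51490, lay at 4.06, 4.05 and 4.25 in C24 seeds and 4.65, 4.72 and 4.41 in Col-0 seeds at 8-9 days. At 12-13 days it lay at 5.06, 4.56 and 4.56 in C24 seeds and 8.91, 8.44 and 9.20 in Col-0 seeds. The difference was -0.47 ± 0.19 at 8-9 days (adjusted p = 0.0914), -2.22 ± 0.19 at 10-11 days (9.88e-08) and -4.12 ± 0.19 at 12-13 days (1.93e-11). Both neighbouring pectin methylesterase genes thus had lower values in C24 from 10-11 days on. Probes that read both of these related transcripts were not tested for.

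AT2G23110, a late embryogenesis abundant protein gene like its neighbour AT2G23120, lay at 4.10, 4.11 and 4.11 in C24 seeds and 4.21, 4.21 and 4.29 in Col-0 seeds at 8-9 days. At 12-13 days it lay at 5.46, 5.05 and 5.56 in C24 seeds and 9.30, 9.17 and 9.72 in Col-0 seeds. The differences were -0.13 ± 0.19 (adjusted p = 0.702), -2.53 ± 0.19 (1.89e-08) and -4.04 ± 0.19 (2.61e-11). At 8-9 days neither accession is shown to lie above background, and the difference there did not meet the rule.

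**Figure D5:**
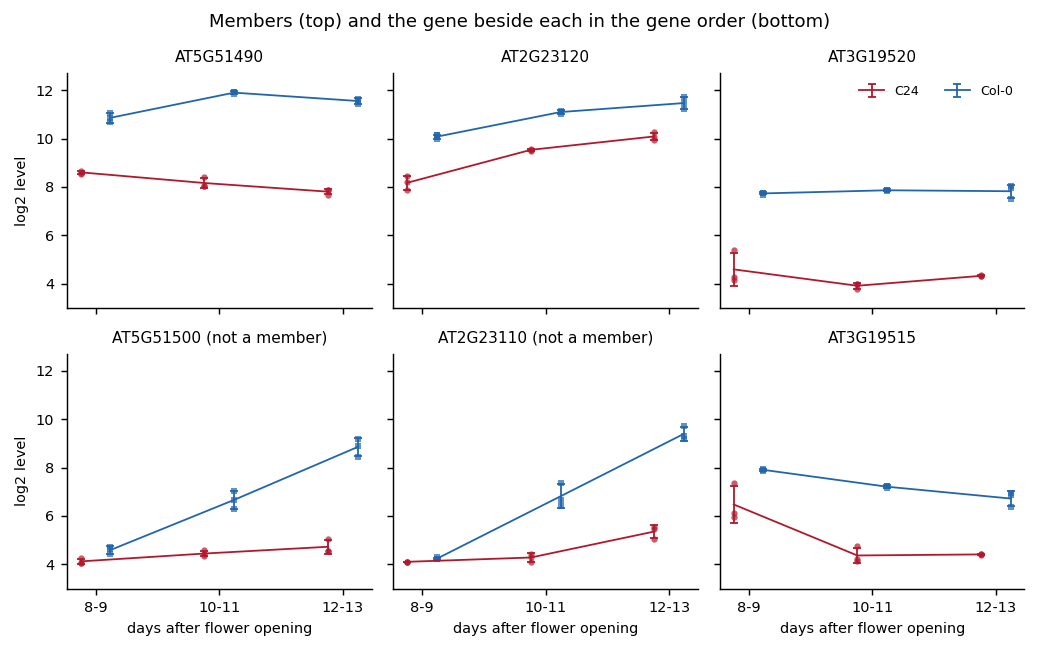
Log2 levels of 3 members (top row) and of the gene beside each (bottom row) against days after flower opening, as pools with group means and SD (C24 red circles, Col-0 blue squares, n = 3). AT5G51500 and AT2G23110 start near 4 in both accessions and end near 9 in Col-0 and near 5 in C24, and AT3G19515 is a member itself.

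The members were set against gene lists and families set out for seeds. Of all 11763 probe sets with a single gene, 0.417% were members, so that lists of a few genes would rarely hold one. None of the 14 list genes that the annotation gave as the single gene of a probe set was a member. The 7 lists cover storage proteins, oil, seed coat pigment, mucilage, endosperm, embryo and silique wall. Such a match was found for 4 of 12 storage protein, 2 of 9 oil, 2 of 15 pigment and 4 of 12 mucilage genes. It was found for 1 of 9 endosperm, 0 of 7 embryo and 1 of 5 silique wall genes. The other list genes may be read by probe sets that the annotation does not list, 32 members among them. Whether any of those genes is a member is not known. By symbol, 2 of 46 UDP-glycosyltransferases and 1 of 22 serine carboxypeptidase-like genes were members. None was among 25 cytochrome P450, 35 AGAMOUS-like, 14 expansin, 13 glutathione transferase and 9 xyloglucan endotransglucosylase genes. The same held for 5 genes of pectin methylesterases or their inhibitors, 5 WRKY genes and 1 receptor-like gene. Genes that the annotation gives only by locus, AT5G51490 among them, are not counted in these families, and 4 further families had no symbol.

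The summed linear level of the seed coat pigment genes BAN and DFR lay between 2665 and 3427 in C24 and between 4959 and 5407 in Col-0 at 8-9 days. It lay between 644.5 and 748.4 in C24 and between 695.7 and 915 in Col-0 at 10-11 days, and between 587 and 691.7 in C24 and between 486.5 and 573.8 in Col-0 at 12-13 days. At 12-13 days the C24 minus Col-0 difference was 0.95 for BAN and -0.13 for DFR, so the higher sum in C24 came from BAN. For the 4 mucilage genes the sums were 5486 to 6888 in C24 and 7005 to 7767 in Col-0 at 8-9 days, 2464 to 2771 in C24 and 2978 to 3716 in Col-0 at 10-11 days, and 1790 to 2075 in C24 and 1952 to 2309 in Col-0 at 12-13 days. For the 4 storage protein genes they were 14140 to 18880 in C24 and 9239 to 14820 in Col-0 at 8-9 days, 37550 to 41200 in C24 and 36000 to 36960 in Col-0 at 10-11 days, and 39810 to 41620 in C24 and 37370 to 38320 in Col-0 at 12-13 days. Within the mucilage list the genes went different ways at 8-9 days. The C24 minus Col-0 difference was -0.26 for ARA12, the brightest, and -1.73 for AT3G50990, and it was 0.16 for AT2G22900 and 0.12 for AT3G10320. ALC, the matched gene of the silique wall list, gave 64.5 to 87.0 in C24 and 69.8 to 83.4 in Col-0 at 8-9 days, which overlap. The 2 oil genes gave 23560 to 25430 in C24 and 21390 to 22980 in Col-0 at 8-9 days, and 23760 to 24040 in C24 and 19690 to 20780 in Col-0 at 12-13 days. The endosperm gene AGL62 lay under the 25th percentile in every group. The part of tissue proportions in the members' differences was not tested.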

How the data were processed

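Levels were deposited by the authors as log2 values per probe set of the ATH1 array, for 18 arrays of 3 pools per accession and stage. Per the series' design text, the authors kept only probes identical to both genome sequences and matching TAIR10 gene models, with at least 3 probes in a set. How background was corrected, arrays were normalized and which software served is not given in the sources used here. In all, 11 control probe sets were left out, and the deposited values were used without further scaling, with no filter on low values.

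The members and gene lists were chosen with earlier results of these data known. Group means were compared in limma 3.58.1 (R 4.3.3) with 1 mean per group, 12 residual and 5.8 prior degrees of freedom, and Benjamini-Hochberg adjustment over 19755 probe sets at a threshold of 0.05. The tested measure was the change between stages averaged over the accessions. The script was tested on simulated data. The named genes were those of lowest mean difference, those with a symbol, those of highest and lowest stage change, those whose difference widened or narrowed most, and those at the edge of the rule, together with adjacent members and second probe sets. Alternatives changed the threshold, the scaling, the use of means, the dim probe sets, the replicate block and the arrays left out. The number of arrays limits the precision.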

Additional observations from a re-analysis of the deposited data

Results flagged for a closer look

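In 5 members every C24 pool at 12-13 days lay below every C24 pool at 8-9 days, while in Col-0 the order was the opposite. This was 6.1% of the 82 members, where 0.506% of all probe sets showed it, and nothing is read from that gap because the rule used the same levels. The later minus the earlier mean was -0.8 in C24 and 0.69 in Col-0 for AT5G51490, and -0.56 in C24 and 0.8 in Col-0 for AT1G17860. For probe sets without a single gene it was -0.38 in C24 and 0.45 in Col-0 for 248499_at, -1.47 in C24 and 0.51 in Col-0 for 251540_at, and -1.68 in C24 and 0.3 in Col-0 for 253666_at. The difference between the accessions in these changes was not tested, since the rule that chose the members used the same values.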

How the results depend on the processing

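The number of members followed the threshold, with 46 at -1 and 161 at -0.6, against 82 at -0.8. It was 84 after quantile scaling (80 shared), 85 after centring (81 shared), 79 without the dimmest 30% of probe sets (79 shared) and 87 with medians in place of means (79 shared). Leaving out each array in turn gave 77 to 88 members, and 63 were members every time. The counts of members past the test ranged from 52 to 56 in the first step, 45 to 53 in the second and 59 to 67 over both. With the replicate number as a block the counts were 55, 49 and 64, against 55, 51 and 64 without it. Same-numbered pools correlated between -0.212 and 0.209 in their deviations from the group means, over 0.1 in 6 of 45 pairs, so the numbers were not taken to pair the pools. For the named genes, 1777 of 1800 stage results under alternatives kept their direction and side of the threshold, 11 no longer passed, 12 newly passed and 0 reversed. Dim C24 levels limit how large a difference can be shown.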
